A study of Mus musculus with 2 samples.

Results

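The Mir322 cluster is a set of microRNA genes that lie one after the other on the minus strand of the mouse X chromosome. Its members were taken as Mir322, Mir503, Mir351, Mir542 and every counted gene whose GENCODE symbol starts with Mir450, which added Mir450-2, Mir450-1 and Mir450b. This gave 7 of the 1973 microRNA genes in the deposited count tables. Small RNA under 30 nt was sequenced from total RNA of whole hearts of B6NCrl mice, a C57BL/6N substrain, at postnatal day 0. Replicate 2 was the heart of pup 3 and replicate 1 the heart of pup 1, with 1 library each and no second condition. Differences between the animals and between the library preparations cannot be told apart. The sex of the pups was not collected, and its part in the levels of these X-linked genes was not tested.

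MicroRNAs are cut from hairpin precursors and pair with target messenger RNAs mainly through the seed, which is bases 2 to 8 from the 5′ end. A polycistron is a transcript that holds several hairpins, and the Mir322 cluster is regarded as one. The human counterpart of Mir322 is named miR-424. Mir322 and Mir503 belong to the extended miR-15/16 family, whose known targets include D-type cyclins and other cell-cycle genes, and they are known for a role in muscle differentiation. Mir351 carries the seed of the miR-125 family, the vertebrate relatives of worm lin-4. In human cells miR-542-3p is known to target survivin, an inhibitor of apoptosis.

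The 7 hairpins spanned 6353 nt (GENCODE M21 on mm10), from the first base of Mir322 to the last base of Mir450b on the transcribed strand. Mir322 lies at chrX:53054255-53054349, and Mir503 at chrX:53053984-53054054 starts after a gap of 200 nt. Mir351 lies at chrX:53053255-53053353, after a gap of 630 nt. The widest gap, 3767 nt, separates Mir351 from Mir542 at chrX:53049403-53049487 and holds the long noncoding RNA gene Gm28730. Mir450-2 at chrX:53048299-53048367, Mir450-1 at chrX:53048154-53048244 and Mir450b at chrX:53047997-53048078 stand close together at the 3′ end, with gaps of 54 nt and 75 nt. Another noncoding gene on the same strand, C430049B03Rik, ends 696 nt before Mir322. Both of these genes overlap 0 of the 7 hairpins.

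The mature RNAs are shown because their seeds decide which other microRNAs the members resemble, and because an identical pair among them affects the counts. Sequences are from RefSeq (GRCm38.p6, which is mm10), 5′ to 3′, all on the minus strand of chromosome X, with the seed in capitals.
miR-322-5p: cAGCAGCAauucauguuuugga
miR-503-5p: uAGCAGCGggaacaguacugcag
miR-351-5p: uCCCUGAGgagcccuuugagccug
miR-542-3p: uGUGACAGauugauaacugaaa
miR-450a-5p, from both Mir450-2 and Mir450-1: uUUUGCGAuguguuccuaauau
miR-450b-5p: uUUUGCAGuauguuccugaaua
miR-450a-2-3p: aUUGGGGAugcuuugcauucau
miR-450a-1-3p: aUUGGGAAcauuuugcauaaau
miR-450b-3p: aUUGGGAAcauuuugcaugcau
The mature RNAs miR-322-5p and miR-503-5p were the same from base 2 to base 7 and differed at base 8. Of the 14 mature entries of the cluster 13 were distinct, since miR-450a-5p comes from both Mir450-2 and Mir450-1. At their 3p arms these twins differ from each other, matching at 16 of 22 positions, while miR-450a-1-3p matched miR-450b-3p at 20 of 22. The miR-351-5p sequence has 24 nt, the longest in the cluster, where the others have 21 to 23 nt.

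All 7 genes were detected, each with 100 or more counts in both hearts, and all reads assigned to them lay on the strand of the hairpins, with counts on the opposite strand in 0 of 7 genes. Levels are given as CPM, counts scaled to a sense-strand gene total of 1000000, and those totals were 7630427 in replicate 2 and 6373797 in replicate 1. At this depth 3 counts correspond to 0.393 CPM in replicate 2 and 0.471 CPM in replicate 1. The cluster took 7.93% of all sense-strand counts in replicate 2, with an exact 95% binomial interval (Clopper-Pearson) of 7.91 to 7.95, and 7.36% in replicate 1, with an interval of 7.34 to 7.38. The mean was 7.64% ± 0.403 (SD, n = 2). Intervals cover counting error only. As these are whole hearts, fewer cells that express a gene and less RNA per cell cannot be told apart. Of the microRNAs of heart muscle, Mir208a, Mir208b and Mir499 together took 12.5% of counts in replicate 2 and 12.2% in replicate 1. The endothelial microRNA Mir126a alone took 12.2% in replicate 2 and 14.4% in replicate 1. The erythroid microRNAs Mir451a and Mir144 had 1237 and 71.2 CPM in replicate 2, and 931 and 112 CPM in replicate 1. The leukocyte microRNA Mir223 had 396 CPM in replicate 2 and 409 CPM in replicate 1. The liver microRNA Mir122 had 44.6 CPM in replicate 2 and 35.8 CPM in replicate 1. The brain microRNA genes Mir124a-1, Mir124a-2 and Mir124a-3 were listed at 0 in both. They are copies that give the same mature RNA, and the tables assign to genes no read that matches several places. These zeros therefore say nothing about the tissue. Mir1a-1, Mir133a-1 and Mir133a-2 are not in the heart muscle sum. They had 7.73, 9.57 and 1.97 CPM in replicate 2, and 10.04, 6.90 and 2.20 CPM in replicate 1. The part of reads that match several places in these low values was not tested. Such reads are missing from the gene total too, and so from the base of the cluster's share.

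The cluster held most of the counts assigned to X-linked microRNA genes. It held 78.4% of the counts of the 120 X-linked genes in replicate 2 (95% interval 78.4 to 78.5) and 77.9% in replicate 1 (77.8 to 78.0). By these counts Mir322 was the most abundant X-linked gene and Mir351 the second. X-linked genes such as Mirlet7f-2, Mir92-2 and Mir19b-2 give mature RNAs that are also encoded on other chromosomes and can be undercounted, which would raise the cluster's share. All X-linked genes together took 10.1% of counts in replicate 2 and 9.45% in replicate 1.

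Levels differed widely from member to member and did not follow the order along the locus. Mir322, at the 5′ end, had 57017 CPM in replicate 2 and 56350 CPM in replicate 1. Mir503, its nearest neighbour, had 1775 CPM in replicate 2 and 1677 CPM in replicate 1. Mir351, the third hairpin, had 16262 CPM in replicate 2 and 11361 CPM in replicate 1. In both hearts Mir503 lay far below the hairpins on either side of it.

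**Figure D1:**
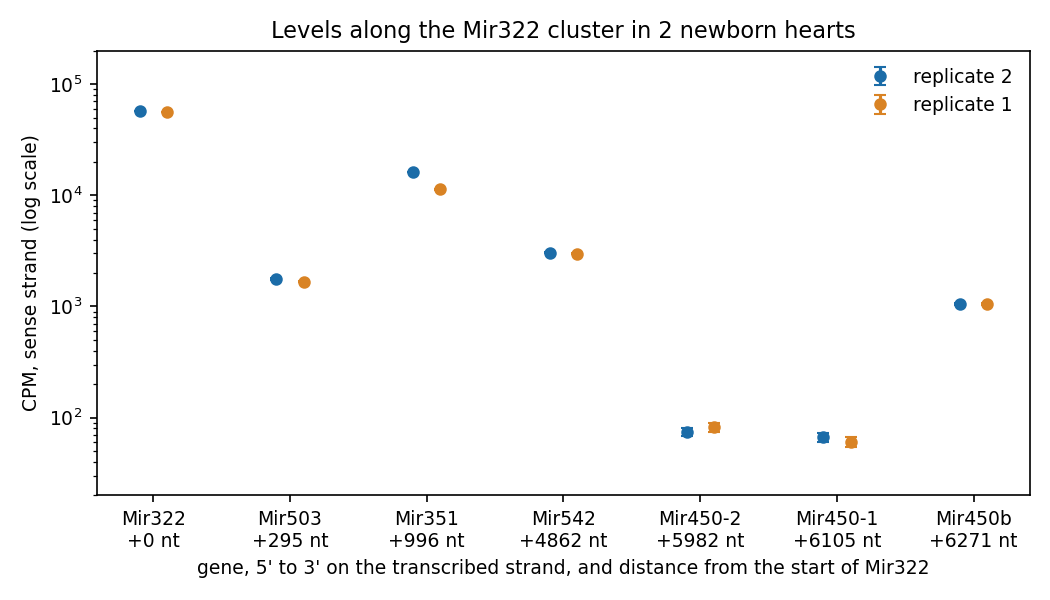
CPM on a log axis for the 7 genes of the Mir322 cluster, in 5′ to 3′ order with the distance of each hairpin start from that of Mir322 in nt. Points are single hearts, replicate 2 left of replicate 1, with exact 95% counting intervals that are mostly smaller than the points. Mir322 stands highest, Mir503 lies far below both of its neighbours, and Mir450-2 and Mir450-1 are the lowest, all under 100 CPM.

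Mir542, beyond the wide gap, had 3041 CPM in replicate 2 and 2990 CPM in replicate 1. Mir450b, the last hairpin, had 1046 CPM in replicate 2 and 1061 CPM in replicate 1. The twins between them were far lower. Mir450-2 had 74.2 CPM in replicate 2 and 81.9 CPM in replicate 1, and Mir450-1 had 66.3 CPM in replicate 2 and 60.1 CPM in replicate 1.

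By mean level the order was Mir322, Mir351, Mir542, Mir503, Mir450b, Mir450-2 and Mir450-1. At each step the lower value of the higher gene lay above the upper value of the next. From Mir322 to Mir450-2 the gaps between neighbouring means were 3.08 to 62.0 times the 2 SDs added together. The step from Mir450-2 to Mir450-1 was the narrowest, with a lowest value of 74.2 CPM for Mir450-2 and a highest value of 66.3 CPM for Mir450-1. In replicate 2 the ratio of Mir450-2 to Mir450-1 was 1.12, with an exact 95% interval of 0.990 to 1.26 that takes in equal levels, against 1.36 in replicate 1 (1.19 to 1.56). The difference between the twins was therefore within counting error in replicate 2.

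The ratios between members show how uneven the output of 1 locus was. Mir322 exceeded Mir503 by 32.1-fold in replicate 2 (exact 95% interval 31.6 to 32.7) and by 33.6-fold in replicate 1 (33.0 to 34.2). Mir351 had 9.16 times the counts of Mir503 in replicate 2 (9.00 to 9.33) and 6.77 times in replicate 1 (6.64 to 6.91). Mir322 exceeded Mir542 by 18.8-fold in replicate 2 (18.5 to 19.0) and in replicate 1 also by 18.8-fold (18.6 to 19.1). Mir322 had 54.5 times the counts of Mir450b in replicate 2 (53.3 to 55.7) and 53.1 times in replicate 1 (51.9 to 54.4). The intervals of the hearts overlapped for the ratios of Mir322 to Mir542 and to Mir450b, and did not for the ratios that involve Mir503. Efficiency of capture and ligation differs between microRNA sequences and is part of every such ratio.

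Mir322 and Mir351 together held 92.4% of the cluster's counts in replicate 2 and 92.0% in replicate 1. Within that sum their shares differed between hearts. Mir322 had 71.9% of the cluster's counts in replicate 2 and 76.6% in replicate 1, and Mir351 had 20.5% in replicate 2 and 15.4% in replicate 1. In percentage points the shares of the other members, which are small, were closer between hearts. Mir542 had 3.84% and 4.06%, Mir503 had 2.24% and 2.28%, and Mir450b had 1.32% and 1.44%, each in replicate 2 and then replicate 1. In proportion to its size, the share of Mir450b differed more than that of Mir322.

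The low values of Mir450-2 and Mir450-1 rest on part of their output. The hairpins below, with the mature arms in capitals, show why these twins are set apart from Mir450b (RefSeq, GRCm38.p6, minus strand).
Mir450-2: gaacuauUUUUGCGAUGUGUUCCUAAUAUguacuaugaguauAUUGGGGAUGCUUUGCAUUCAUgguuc
Mir450-1: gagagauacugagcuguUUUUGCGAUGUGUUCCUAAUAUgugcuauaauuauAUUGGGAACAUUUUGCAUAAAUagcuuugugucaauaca
Mir450b: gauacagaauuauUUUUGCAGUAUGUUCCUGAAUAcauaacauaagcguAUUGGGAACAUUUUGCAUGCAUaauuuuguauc
The 5p arms of the twins are identical, and the tables assign to genes no read that matches more than 1 place. Such reads were 34.6% of the total in replicate 2, against 35.9% of it in replicate 1. Reads of the shared arm can therefore be missing from both genes. Mir450b shares no 20 nt of its mature arms with another RefSeq microRNA, nor do Mir322, Mir503, Mir351 and Mir542. Over these 5 genes the highest level was 54.5 times the lowest in replicate 2 and 53.1 times in replicate 1, where over all 7 it was 860 and 938 times.

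Mir322 was the main source of its seed among the counted genes. The seed of miR-322-5p occurs in 11 RefSeq microRNA genes, of which 10 are in the tables and 6 had counts. These 6 are shown by their mature RNA, each with the seed in capitals.
miR-15a-5p, of Mir15a on chromosome 14: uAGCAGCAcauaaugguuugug
miR-15b-5p, of Mir15b on chromosome 3: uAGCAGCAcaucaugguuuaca
miR-16-5p, of Mir16-1 and Mir16-2 on chromosomes 14 and 3: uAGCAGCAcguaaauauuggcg
miR-195a-5p, of Mir195a on chromosome 11: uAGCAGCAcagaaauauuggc
miR-322-5p, of Mir322 on chromosome X: cAGCAGCAauucauguuuugga
Mir322 took 89.1% of the pooled counts of these genes in replicate 2 (exact 95% interval 89.0 to 89.2) and 89.0% in replicate 1 (88.9 to 89.1). The pool itself was 6.40% of all counts in replicate 2 and 6.33% in replicate 1. Mir15a came next, at 2992 CPM in replicate 2 and 3020 CPM in replicate 1. Mir16-1 had 1806 CPM in replicate 2 and 1587 CPM in replicate 1, and Mir195a had 963 and 1248 CPM. Lower still were Mir15b, with 722 CPM in replicate 2 and 719 CPM in replicate 1, and Mir16-2, with 505 and 384 CPM.

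Reads that could not be counted would lower the share of Mir322. Mir16-1 and Mir16-2 give the same mature RNA and lose reads that match both places, and Mir497, which carries the seed too, is not analysed here. Counts are per gene, so reads of the 3p arm are included. With bases 2 to 7 as the seed, Mir503 joins the pool, with 2.70% of it in replicate 2 and 2.58% in replicate 1, and Mir322 then had 86.7% in both.

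Mir351 was likewise the leading counted gene with the miR-125 seed. Its counted relatives are shown beside it with the seed in capitals.
miR-351-5p, of Mir351 on chromosome X: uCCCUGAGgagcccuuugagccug
miR-125a-5p, of Mir125a on chromosome 17: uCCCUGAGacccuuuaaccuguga
miR-125b-5p, of Mir125b-1 and Mir125b-2 on chromosomes 9 and 16: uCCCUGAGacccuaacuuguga
Mir351 took 73.0% of the pooled counts in replicate 2 (exact 95% interval 72.8 to 73.2) and 69.5% in replicate 1 (69.3 to 69.8). Mir125a, the next in level, had 5144 CPM in replicate 2 and 4001 CPM in replicate 1. Mir125b-2 had 587 CPM in replicate 2 and 681 CPM in replicate 1, and Mir125b-1 had 281 CPM in replicate 2 and 295 CPM in replicate 1. Both Mir125b genes give the same mature RNA, so reads that match both are missing, and counting them would lower the share of Mir351.

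**Figure D2:**
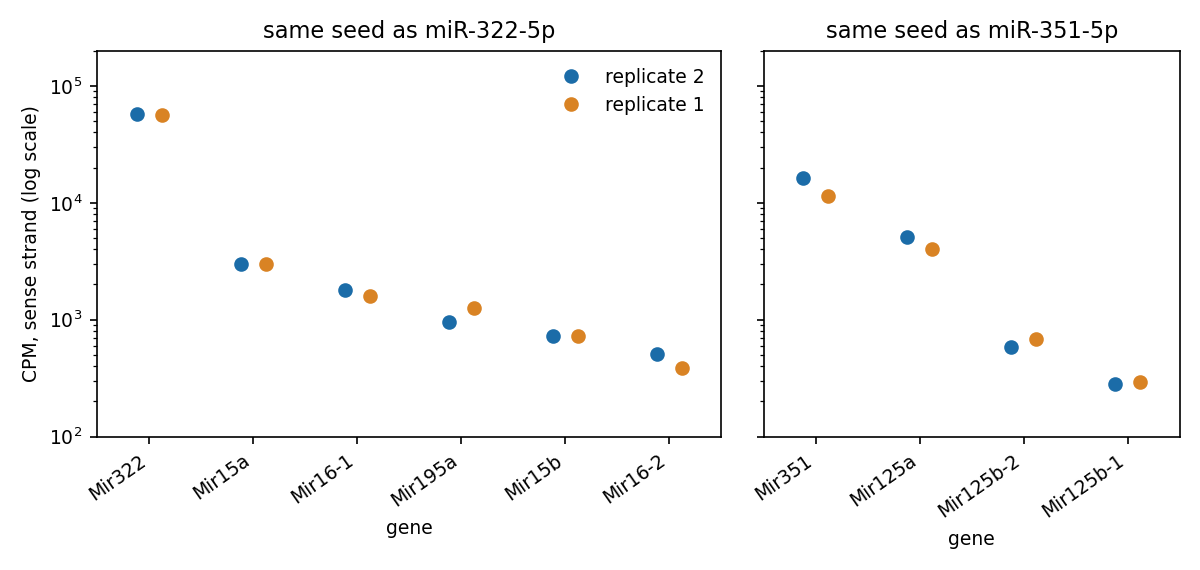
CPM on a log axis of the genes with 100 or more counts in each heart that carry the seed of miR-322-5p (left, 6 genes) or of miR-351-5p (right, 4 genes). Points are single hearts, replicate 2 left of replicate 1. Mir322 and Mir351 lead their panels, and in the right panel replicate 2 is the higher heart for Mir351 and Mir125a but not for the Mir125b genes.

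For 1 arm of each remaining member, the seed was found in no RefSeq microRNA gene outside the cluster. The seeds of miR-503-5p, miR-542-3p and miR-450b-5p were found in 1 RefSeq microRNA gene each, and that of miR-450a-5p in the twins alone. Seeds were compared at bases 2 to 8 of RefSeq mature entries only. The other arms of these members are not covered here, and miR-450a-1-3p and miR-450b-3p have the same seed.

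The cluster was set beside 3 other groups of neighbouring microRNA genes. The Mir17 cluster on chromosome 14 is known for promoting proliferation, and the Mir106a cluster is its relative on the X chromosome. The Mir362 cluster lies in introns of the X-linked chloride channel gene Clcn5. The Mir322 cluster took 7.93% of counts in replicate 2 and 7.36% in replicate 1, against 1.597% and 1.39% for the 6 genes of the Mir17 cluster and 0.617% and 0.576% for the 5 counted genes of the Mir362 cluster. The Mir106a cluster, 305429 nt further along the same strand of the X chromosome, took 0.00491% in replicate 2 and 0.00458% in replicate 1. Its most abundant gene, Mir92-2, had 29.7 CPM in replicate 2 and 26.0 CPM in replicate 1, below Mir450-1, the lowest member of the Mir322 cluster, in both hearts. Mir92-2 shares 20 nt with Mir92-1 of the Mir17 cluster, and Mir19b-2 shares 20 nt with Mir19b-1. Reads that match both places are missing from these genes, as they are from Mir450-1. The shares of the Mir106a and Mir17 clusters can therefore be too low, and Mir92-2 and Mir450-1 are compared on part of their output.

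Wide differences in level among neighbours occurred in other clusters too. Among genes that share no 20 nt with another, the highest member of the Mir322 cluster had 54.5 times the level of the lowest in replicate 2 and 53.1 times in replicate 1. The same ratio was 710 and 689 over 4 genes of the Mir17 cluster, because of Mir19a at 13.4 CPM in replicate 2 and 11.5 CPM in replicate 1. It was 9.08 and 14.9 over the 5 genes of the Mir362 cluster. It was 5.67 and 5.43 over 4 genes of the Mir106a cluster, all under 7 CPM. The leading gene held more of its cluster in the Mir322 cluster, 71.9% in replicate 2 and 76.6% in replicate 1, than Mir17 did in its own, 59.4% and 56.8%.

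**Figure D3:**
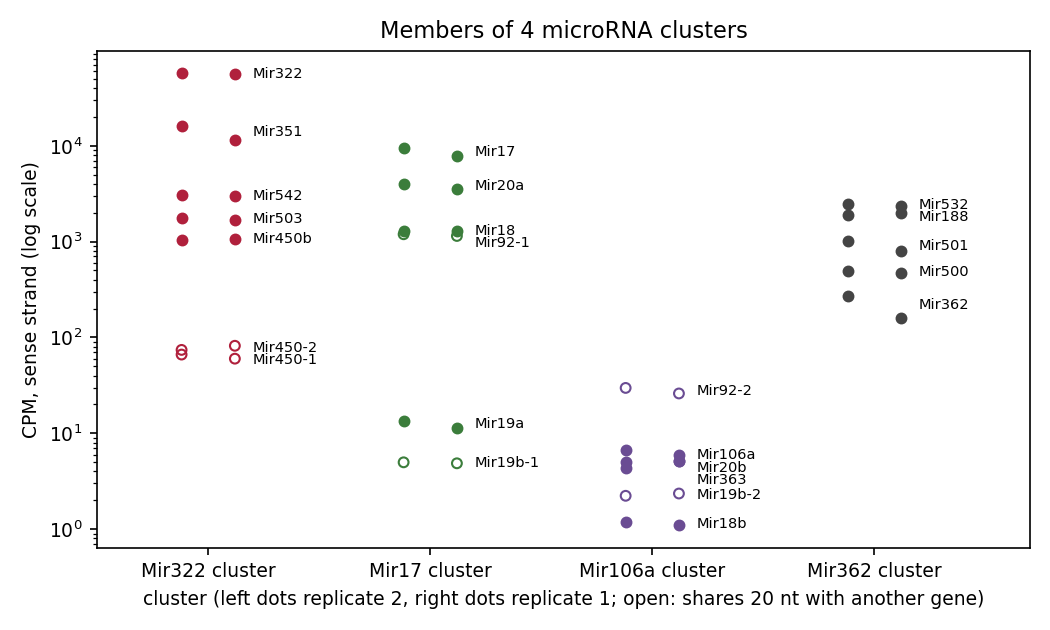
CPM on a log axis for every counted gene of the Mir322, Mir17, Mir106a and Mir362 clusters, 1 point per heart, with replicate 2 on the left and replicate 1 on the right of each column. Open points are genes that share 20 nt of a mature arm with another gene. Mir322 and Mir351 lie above all genes of the other 3 clusters, and the whole Mir106a cluster lies under 30 CPM.

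In level, the genes outside the cluster nearest to Mir322 were Mir335, Mir30e and Mirlet7i, at distances of 0.12, 0.32 and 0.53 on the log2(CPM + 1) scale over the 2 libraries. Mir335, which lies in the imprinted gene Mest, had 61548 CPM in replicate 2 and 58653 CPM in replicate 1. Nearest to Mir351 were Mirlet7d at a distance of 0.52, Mir30d at 0.55 and Mir23b at 0.57. With 2 samples this measures likeness of level alone.

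Between the hearts, Mir351 moved apart from the rest of its cluster. All ratios here are replicate 2 over replicate 1, tested gene by gene with exact binomial tests on the 2 libraries and Benjamini-Hochberg adjustment over the 435 genes with 10 or more counts in all. The test compares the libraries and takes sampling noise alone into account, so it says nothing of conditions. Mir351 had 16262 CPM in replicate 2 against 11361 CPM in replicate 1, a log2 ratio of 0.52 (exact 95% interval 0.50 to 0.53), and its exact binomial adjusted p was returned as 0 because it is smaller than the software can hold. Among the 74 genes with a mean of 1000 CPM or more, only 1 had a larger ratio in either direction, Mir342 at 0.55, which is named after its value was seen. Among all 275 genes with 100 or more counts in all, Mir351 ranked 19 by the size of its ratio.

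The other members stayed close to 1 to 1. Mir503 had a log2 ratio of 0.082 (0.045 to 0.12), with an exact binomial adjusted p of 5.86e-05, which became 0.381 with all reads as the total and 0.0507 when Mir126a, the most abundant gene, was left out of the total. Mir322 had a log2 ratio of 0.017 (0.011 to 0.023), with an exact binomial adjusted p of 9.75e-07, but its ratio was -0.041 with all reads as the total and -0.020 without Mir126a in the total, so its direction depends on the scaling, and with TMM factors its adjusted p was 0.461. Mir542 at 0.024 (-0.0035 to 0.052), Mir450b at -0.020 (-0.067 to 0.027), Mir450-1 at 0.14 (-0.052 to 0.34) and Mir450-2 at -0.14 (-0.32 to 0.032) did not pass, with exact binomial adjusted p from 0.217 to 0.65. The direction of Mir542 also turned with those scalings, to -0.034 and -0.012.

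Of the members, Mir351 passed under every scaling tried, while Mir450b passed only with all reads as the total, at -0.078 and an exact binomial adjusted p of 0.00418. With the gene total, 3 of 7 members passed, each higher in replicate 2, where 31% of the 435 genes tested passed in either direction, 19.1% toward replicate 2 and 12% toward replicate 1. The median log2 ratio of the members was 0.02, and that of all genes tested was 0.02 as well. With edgeR's exact test at a preset coefficient of variation of 0.1, 0 members passed after adjustment, where 1 of all 435 genes tested passed. Mir351 alone of the members had an unadjusted p under 0.05. Without Mir351 the rest of the cluster took 6.30% of counts in replicate 2 and 6.22% in replicate 1, a log2 ratio of 0.02, where the whole cluster had 0.11.

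**Figure D4:**
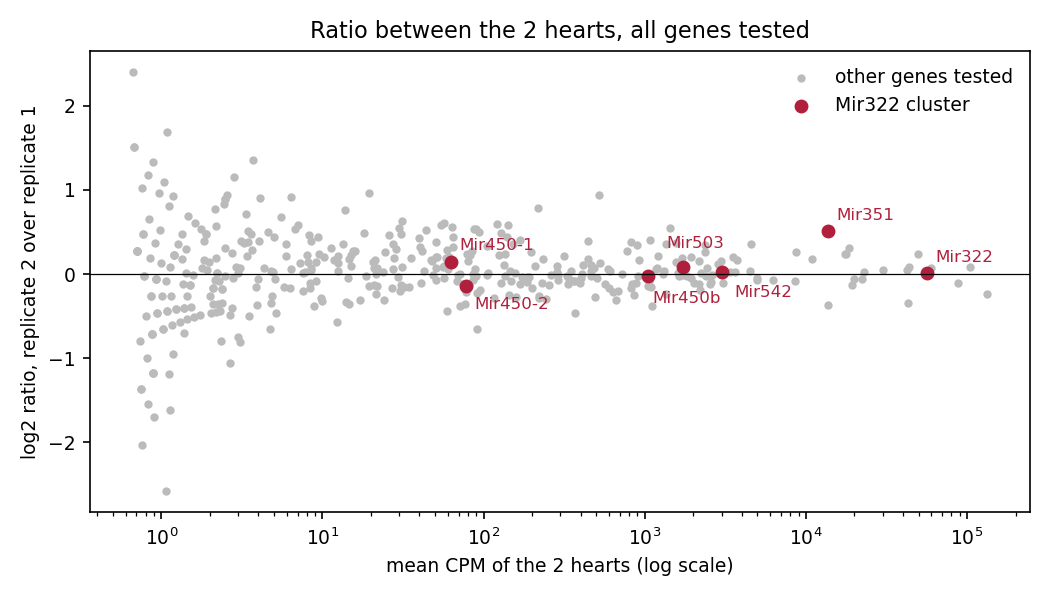
Log2 ratio of replicate 2 over replicate 1 against the mean CPM of the 2 hearts (log axis) for the 435 genes tested, with the Mir322 cluster in red. Mir351 stands at 0.52 while the other 6 members lie between -0.14 and 0.14.

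Most genes with a long annotated mature RNA shared the direction of Mir351. Counts are per gene, so the longest arm need not be the arm that was counted. The grouping by length was chosen after the values were seen. It covers the 218 genes with 100 or more counts in all, a RefSeq mature entry and no 20 nt shared with another gene. Of the 23 genes whose longest annotated arm has 24 nt or more, 18 were higher in replicate 2, with a median log2 ratio of 0.18, and Mir351 was 1 of the 4 highest among them. Of the 140 genes whose longest arm has 22 nt or less, 67 were higher in replicate 2, with a median of -0.014. Genes with a longest arm of 23 nt lay between, with a median of 0.15 over 55 genes. The medians did not rise at each length, with 0.044 at 21 nt and -0.020 at 22 nt. As a description, the rank correlation of length with the log2 ratio was 0.25 over the 218 genes.

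Among the counted relatives of Mir351, the gene with the longer 5p arm had the higher ratio. Mir125a, whose 5p arm has 24 nt, had a log2 ratio of 0.36, with an exact binomial adjusted p of 4.07e-216. Mir125b-2 and Mir125b-1, whose shared 5p arm has 22 nt, had log2 ratios of -0.21 and -0.072. Reads that match both Mir125b genes are missing, so these ratios need not be those of the shared arm. For the same reason both genes are outside the grouping by length. The Mir362 cluster did not follow the split throughout. Mir362, with a longest arm of 24 nt, had a log2 ratio of 0.78, but Mir500, with 25 nt, had 0.077. Mir501 and Mir532, with 22 nt each, had 0.34 and 0.068, and Mir188, with 21 nt, had -0.046. Mir152, outside these clusters, has a longest annotated arm of 24 nt and had -0.28. It is the lowest of the 23 genes with 24 nt or more and is named after its value was seen. The part of mature length, library size selection or arm use in the ratio of Mir351 was not tested.

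**Figure D5:**
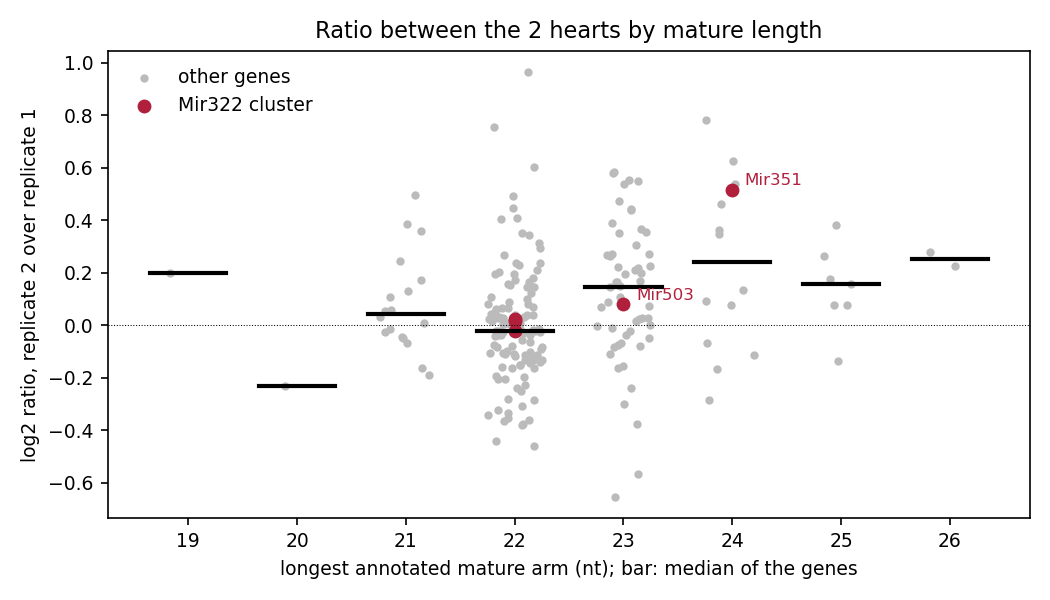
Log2 ratio of replicate 2 over replicate 1 by the length in nt of the longest annotated mature arm, for 218 genes, with black bars at the median of each length and 5 members of the Mir322 cluster in red. The median is 0.044 at 21 nt, -0.020 at 22 nt, 0.15 at 23 nt, 0.24 at 24 nt and 0.16 at 25 nt. Mir351 stands at 0.52 among the genes of 24 nt. Lengths of 19, 20 and 26 nt hold 1 or 2 genes each.

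The hairpins of the members fell into groups by base composition. GC content was 51.6% in Mir322, 54.9% in Mir503 and 51.8% in Mir542, and 36.2% in Mir450-2, 33.0% in Mir450-1 and 30.5% in Mir450b, where the median of 372 other hairpins was 51.2%. The minimum free energy predicted by RNAfold, which measures the stability of the folded hairpin, was -0.53 kcal/mol per nt for Mir503, -0.45 for Mir322, Mir450-1 and Mir542, -0.39 for Mir450b and -0.38 for Mir450-2, where the other hairpins had a median of -0.43. Of these 6 hairpins, the 3 with the higher GC content were also the 3 highest in level. As a description over the 6 genes, which share a locus, libraries and depth, the rank correlation of mean CPM was 0.60 with GC content and -0.43 with free energy per nt. The levels of Mir450-2 and Mir450-1 in it lack reads of their shared arm. The hairpin of Mir351 is not analysed here.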

How the data were processed

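The authors deposited 1 table of raw read counts per gene for each of the 2 hearts, in whole numbers, on mm10 with GENCODE M4 per the file headers. For the aligner, the counter and the trimming of reads, versions and names were not given in the sources used here. Each table has a count column for both strands, equal to the sum of the other 2, of which the first, with 92.8% of gene counts in replicate 2 and 92.9% in replicate 1, was taken as the strand of the gene. Totals leave out the rows for reads without a gene, which were 15.5% and 12.6% unmapped, 34.6% and 35.9% multi-mapped and 2.28% and 1.93% unassigned (replicate 2, then replicate 1).

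Names and positions came from GENCODE M21 on the same build, which matched 1894 of 1973 identifiers, and sequences from RefSeq (GRCm38.p6), which matched 399 of the 435 genes tested and all 7 members. CPM used the sense-strand total. Log2 ratios added 0.5 counts. The adjusted p threshold was 0.05. With 1 group, edgeR's quasi-likelihood test has no contrast, so the hearts were compared by exact binomial tests. These tests were tried on counts simulated with sampling noise alone, which leaves out spread between animals. Named genes were all members, seed relatives with 100 or more counts in each library, the genes of the 3 other clusters, and the 3 genes nearest in level to Mir322 and to Mir351. Members and lists were chosen with earlier results of these data known. Hairpins were folded with RNAfold 2.7.2, tests run with SciPy 1.17.1 in Python 3.11.15 (pandas 2.3.3, NumPy 2.4.6), figures drawn with matplotlib 3.10.9, and alternatives computed in R 4.3.3 with edgeR 4.0.16 and the size factors of DESeq2 1.42.0.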

Additional observations from a re-analysis of the deposited data

How the results depend on the processing

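The share of the cluster, 7.64%, was 3.44% with all reads as the total, 8.81% without Mir126a in the total and 7.09% with counts of both strands. Each of these changes the total alone, since the members have no opposite-strand counts. With either heart left out it was 7.36% to 7.93%. TMM and DESeq2 size factors left it within the spread between hearts. The log2 ratio of Mir322 between hearts turned to -0.041 with all reads as the total and -0.020 without Mir126a, and that of Mir542 to -0.034 and -0.012. With TMM or DESeq2 size factors Mir322 no longer passed, at log2 ratios of 0.0037 and 0.0012. The count of 3 members that passed was 0 with edgeR's exact test at a coefficient of variation of 0.1 (1 unadjusted). It was 0 at 0.2 (0 unadjusted), because these settings allow for spread between animals. Over all 435 genes tested the count fell likewise, from 135 to 1 at 0.1 and to 0 at 0.2. The share of Mir322 in its seed pool was 86.7% with bases 2 to 7, and 89.0% to 89.1% with either heart left out. The share of Mir351 was 69.5% to 73.0% with either heart left out. The ratio of the highest to the lowest member, 899, was 53.8 without genes that share 20 nt, and 860 to 938 with either heart left out. No paired analysis was possible because there is 1 group.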
